A study of Mus musculus with 6 samples.

Results

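Cadherins and Epcam hold cells to their neighbours, and which of them a cell makes is one of the plainest marks of whether it is epithelial or mesenchymal. The 8 genes described here are Cdh1, Cdh3, Cdh16 and Epcam, taken as the epithelial group, and Cdh2, Cdh11, Cdh4 and Cdh6, taken as the mesenchymal group. They were chosen by symbol with earlier results of these data known, and all 8 were among the 14162 genes of the deposited tables. The tables came from whole mouse lungs at stage E12.5, with 3 RNA-seq libraries labelled ShhCre-Dnmt1KO (here Dnmt1KO) and 3 from wild-type littermates (WT). In the Dnmt1KO embryos Dnmt1 is deleted by Cre recombinase driven from Shh, a gene expressed by the airway endoderm. Dnmt1 encodes the methyltransferase that copies DNA methylation onto new strands. The mesenchyme, vessels and nerves of the same lungs lie outside that lineage. Since Cre is named in the labels of Dnmt1KO alone, an effect of the Cre allele at Shh and loss of Dnmt1 cannot be told apart. Nothing in the labels ties a library to 1 embryo, so the p-values cover the spread between libraries, which may be technical.

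Classical cadherins bind like to like across the gap between cells in a calcium-dependent way, and their tails hold catenins that connect to actin. E-cadherin, the product of Cdh1, builds the adherens junctions of epithelia, while N-cadherin (Cdh2) and cadherin-11 (Cdh11) serve mesenchymal, muscle and nerve cells. A switch between E-cadherin and N-cadherin accompanies epithelial-mesenchymal transition (EMT), in which Snai and Zeb repressors bind CAGGTG letters in the promoters of epithelial genes. Cdh16 encodes an atypical cadherin with a short tail that does not bind catenins, known best from kidney tubules and thyroid. Epcam is not a cadherin but an adhesion and signalling protein of most simple epithelia.

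Promoter sequence was at hand for 2 of the 8 genes, Epcam and Cdh6. It is shown because some of the repressors that read these letters, Snai1, Snai2 and Zeb2, were measured in the same libraries. The windows are the 250 bases before the start that RefSeq gives on GRCm38.p6, a later build than the mm9 named by the submitters. Capitals mark CAGGTG or its reverse complement CACCTG.
Epcam, chr17:87635729-87635978, plus strand: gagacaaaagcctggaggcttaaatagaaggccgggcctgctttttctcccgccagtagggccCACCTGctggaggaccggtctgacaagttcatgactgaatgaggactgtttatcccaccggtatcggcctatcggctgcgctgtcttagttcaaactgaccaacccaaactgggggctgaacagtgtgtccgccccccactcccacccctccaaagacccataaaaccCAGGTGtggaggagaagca
Cdh6, chr15:13173676-13173925, minus strand: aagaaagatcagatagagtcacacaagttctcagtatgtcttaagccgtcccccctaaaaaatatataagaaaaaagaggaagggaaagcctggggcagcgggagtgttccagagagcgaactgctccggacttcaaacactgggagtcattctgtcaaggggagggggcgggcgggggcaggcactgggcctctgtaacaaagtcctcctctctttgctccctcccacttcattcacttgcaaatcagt
The Epcam window held 2 matches, starting at bases 64 and 232, and the Cdh6 window held 0. Of all 32851 windows of this length in the table, 17.2% held at least 1 match. The Epcam window contained 8 CpG dinucleotides and the Cdh6 window 6, against a median of 6 over all windows. A match is a description of letters and says nothing about binding in these lungs, and no methylation was measured here.

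The read numbers recovered from the deposited values came to between 18192629 and 21046831 per Dnmt1KO library and between 20599736 and 25597662 per WT library. Dnmt1, on chromosome 9, stood at log2 values of 15.57, 15.40 and 15.31 in Dnmt1KO and 15.72, 15.74 and 15.76 in WT. All Dnmt1KO values were below all WT values, the log2 difference was -0.31 ± 0.09 (SE), and neither limma (adjusted p = 0.507) nor an exact two-sided permutation test (p = 0.1, the smallest that 3 against 3 allows) passed. Both compartments of the lung were present. The 16 epithelium markers summed to log2 levels of 16.34 to 16.77 in Dnmt1KO and 16.39 to 16.78 in WT, and the 18 mesenchyme markers to 19.47 to 19.74 in Dnmt1KO and 19.42 to 19.73 in WT, with no measured marker of either list at 0 reads in any library. Replicate 1 of Dnmt1KO had 3 reads over 4 genes of the Y chromosome, where every other library had at least 4155. In bulk tissue a lower value can come from fewer cells of a type or from less RNA per cell, and these cannot be told apart.

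The 8 genes spanned about 2 orders of magnitude in level. Levels between genes are compared here as RPKM, reads scaled to the length of annotated exon and to the depth of the library. Epcam was at the top with 66.1 ± 16.9 RPKM in Dnmt1KO lungs and 62.6 ± 7.57 RPKM in WT lungs (SD, n = 3 each), followed by Cdh11 with 49.4 ± 0.181 in Dnmt1KO and 55.1 ± 5.33 in WT. Cdh1 (19.9 ± 4.42 in Dnmt1KO, 17.2 ± 1.54 in WT), Cdh2 (17.5 ± 2.86 in Dnmt1KO, 15.7 ± 1.77 in WT) and Cdh3 (14.9 ± 0.55 in Dnmt1KO, 14.5 ± 2.65 in WT) came next. Their libraries overlapped from each gene to the next in both groups, so the order of these 3 was not resolved, nor was that of Epcam and Cdh11. Cdh16 followed with 1.61 ± 0.511 in Dnmt1KO and 4.13 ± 0.541 in WT, then Cdh6 (1.04 ± 0.324 in Dnmt1KO, 1.10 ± 0.96 in WT) and Cdh4 (0.558 ± 0.092 in Dnmt1KO, 0.675 ± 0.0643 in WT). The steps from Cdh11 to Cdh1 and from Cdh3 to Cdh16 were free of overlap in both groups. In WT every Cdh16 library also lay above every Cdh6 library, while in Dnmt1KO the lowest Cdh16 library, at 1.05, lay below the highest Cdh6 library, at 1.41.

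**Figure D1:**
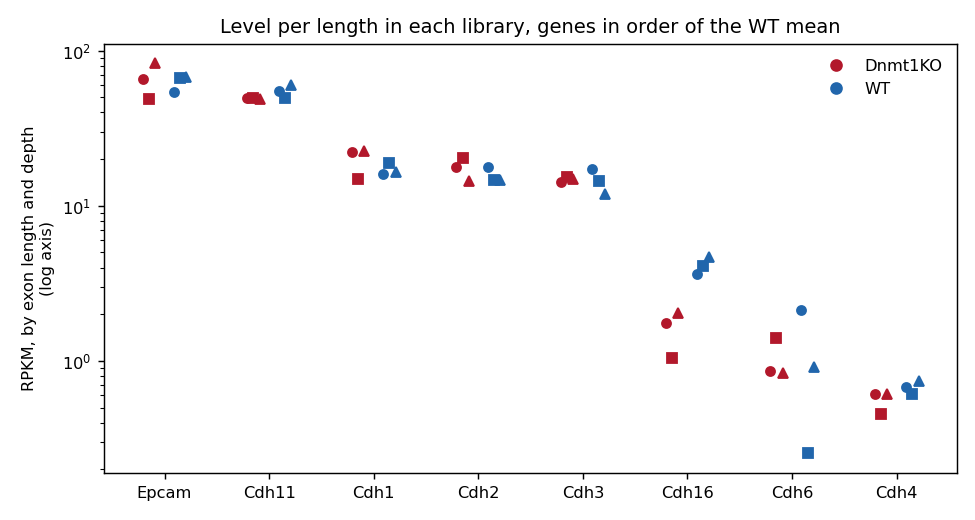
Level per length of the 8 genes in each library, in RPKM on a log axis, with Dnmt1KO to the left of WT and circles, squares and triangles for replicates 1, 2 and 3. Epcam and Cdh11 lie highest, Cdh1, Cdh2 and Cdh3 form a middle group, and Cdh16 is the gene whose 2 groups stand farthest apart relative to their spread.

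Set against WT, Cdh16 had the largest difference of the 8, at 0.375 times the WT level in Dnmt1KO without passing the test, while Cdh1, Cdh3, Epcam and Cdh2 differed by less than the spread between libraries. No gene of the 8 passed limma's test over all genes at an adjusted p of 0.05, a threshold that 0.29% of all 14162 genes passed, 0.282% as higher and 0.00706% as lower. By the unadjusted p, 1 of the 8 was under 0.05, as were 4.52% of all genes. Of the 8, 3 had a negative and 5 a positive difference, with a median of 0.039 on the log2 scale against -5.88e-05 over all genes. For 3 of them, Cdh16, Cdh11 and Cdh4, the highest Dnmt1KO value was still under the lowest WT value, a pattern found in 3.99% of all genes. None lay wholly above, as 4.79% of all genes did, and groups without overlap in either direction made up 8.78%. As the 8 genes were chosen with results known, their counts beside these shares are no test of the set.

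Cdh1, on chromosome 8, had log2 values of 13.34, 12.76 and 13.37 in Dnmt1KO replicates 1, 2 and 3 and 12.88, 13.14 and 12.92 in the WT replicates. The groups overlapped, since Dnmt1KO replicate 2 was the lowest of all and the other two Dnmt1KO libraries the highest. The log2 difference was 0.17 ± 0.16 (SE, limma adjusted p = 1), and its 95% confidence interval of -0.20 to 0.55, not adjusted for the number of genes, corresponds to between 0.868 and 1.46 times the WT level. Markers of liver, a tissue that makes E-cadherin, had higher values in Dnmt1KO without passing the test. The 4 measured of 8 summed to 11.51, 10.82 and 10.58 in Dnmt1KO replicates 1, 2 and 3 and 8.30, 9.13 and 8.44 in WT. Dnmt1KO replicate 3 had the lowest sum of its group and the highest Cdh1, whereas WT replicate 2 was the highest of its group in both. The part of liver RNA in the Cdh1 values was not tested.

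Epcam, on chromosome 17, stood at 13.85, 13.42 and 14.18 in Dnmt1KO and 13.56, 13.89 and 13.88 in WT on the log2 scale. Dnmt1KO replicate 3 was the highest library and replicate 2 the lowest, as for Cdh1, and the WT values lay between them. The difference was 0.037 ± 0.18 (adjusted p = 1), with an interval of 0.769 to 1.37 times the WT level. Its sign rested on single libraries, being -0.14 without Dnmt1KO replicate 3, -0.071 without WT replicate 1 and -0.14 with sample weights.

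Cdh3 encodes P-cadherin, the classical cadherin of placenta and of basal layers in stratified epithelia. It had log2 values of 12.64, 12.75 and 12.70 in Dnmt1KO and 12.91, 12.68 and 12.38 in WT. The Dnmt1KO values lay inside the WT range, and the difference of 0.04 ± 0.13 (adjusted p = 1) had an interval of 0.835 to 1.27 times the WT level. It was -0.10 without WT replicate 3. Cdh3 and Cdh1 lie next to each other on chromosome 8, with 1 gene model between them in the GENCODE M21 order of protein-coding genes.

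Cdh16, also on chromosome 8, had 121, 80 and 163 reads in Dnmt1KO lungs and 350, 321 and 412 in WT lungs. On the log2 scale these were 9.41, 8.67 and 9.63 in Dnmt1KO and 10.45, 10.67 and 10.83 in WT. The highest Dnmt1KO library lay 0.83 below the lowest WT library, a gap larger than the WT range of 0.37 and smaller than the Dnmt1KO range of 0.96. The mean level in Dnmt1KO was 0.375 times that in WT (95% confidence interval 0.254 to 0.555), a log2 difference of -1.41 ± 0.25 (SE). This did not pass over all genes (limma adjusted p = 0.0795, unadjusted p = 0.000376). Neither the unadjusted p nor the interval allows for the choice of Cdh16 with results known. Of the 14162 genes, 17 had a more negative difference. Leaving out Dnmt1KO replicate 3 gave a limma adjusted p of 0.0391 and sample weights one of 0.0195, both past the threshold. The weights were largest for WT replicate 3 (2.03) and Dnmt1KO replicate 2 (1.72), the highest and the lowest library of Cdh16. As each other library was left out in turn the difference lay between -1.51 and -1.13 without passing (adjusted p = 0.0925 to 0.5). Nor did it pass with the lowest 25% of genes removed (limma adjusted p = 0.338), without trend and robust estimation (0.201) or with quantile normalization (0.102). The nearest measured protein-coding neighbours in gene order, Pdp2 (-0.23 ± 0.11) and Rrad (0.21 ± 0.26), had adjusted p = 1.

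**Figure D2:**
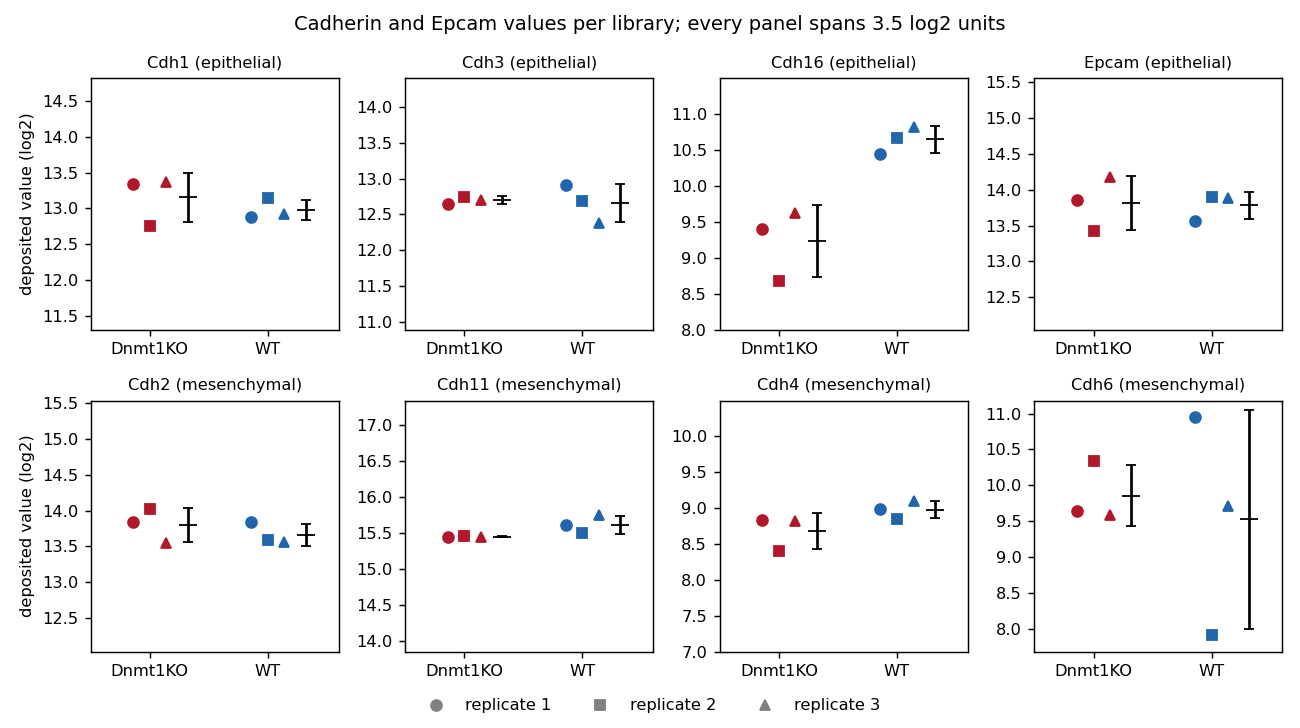
Deposited log2 values of the 8 genes in each library, Dnmt1KO left and WT right, with the mean and SD (n = 3) as bars and every panel spanning the same number of log2 units. The Cdh16 groups are 0.83 apart at their nearest libraries, Cdh11 and Cdh4 are separated by 0.036 and 0.022, and the 5 other genes overlap.

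Set against other epithelial genes of the same library, Cdh16 was lower in Dnmt1KO by a similar amount. The means of Epcam and of the epithelium markers differed little between the groups, so this follows from the Cdh16 difference and is no separate support. Cdh16 minus Epcam was -4.44, -4.75 and -4.55 in Dnmt1KO lungs and -3.11, -3.23 and -3.06 in WT lungs, so the means of -4.58 ± 0.16 in Dnmt1KO lungs and -3.13 ± 0.09 in WT lungs (SD, n = 3 each) differed by -1.45. Against the mean log2 value of the 16 epithelium markers, Cdh16 stood at -2.40, -3.04 and -2.56 in Dnmt1KO and -1.24, -1.45 and -1.15 in WT, with no overlap either. The same measure for Epcam was 2.05, 1.71 and 1.99 in Dnmt1KO and 1.87, 1.78 and 1.91 in WT, and for Cdh1 1.53, 1.04 and 1.18 in Dnmt1KO and 1.19, 1.03 and 0.95 in WT, both overlapping. These differences are within a library and do not move with its scaling factor. Of 10 genes that mark thyroid and kidney epithelium, the organs best known for Cdh16, 4 were measured. They summed to 10.51 to 10.78 in Dnmt1KO and 10.34 to 11.24 in WT, and Pax8 was not analysed here.

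The E-cadherin to N-cadherin balance did not differ between the groups beyond its spread. Cdh1 minus Cdh2 was -0.50, -1.27 and -0.18 in Dnmt1KO and -0.96, -0.44 and -0.65 in WT, with means of -0.65 ± 0.56 in Dnmt1KO lungs and -0.68 ± 0.26 in WT lungs (SD, n = 3 each). The widest range was within Dnmt1KO, between replicates 2 and 3. The mean of the 4 epithelial genes minus the mean of the 4 mesenchymal genes averaged 0.28 ± 0.40 in Dnmt1KO and 0.57 ± 0.52 in WT, and 1.28 ± 0.33 in Dnmt1KO and 1.19 ± 0.52 in WT once Cdh16 was left out. No test was run on these within-library values, since the genes were chosen with results known.

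**Figure D3:**
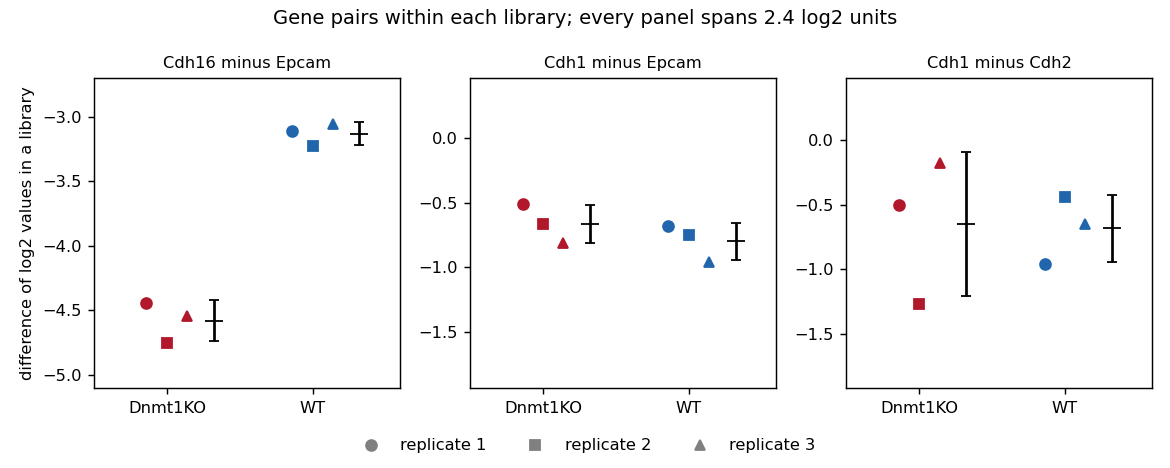
Differences of log2 values between 2 genes of the same library, Dnmt1KO left and WT right, with mean and SD (n = 3) as bars and the same span in each panel. Cdh16 minus Epcam lies between -4.75 and -4.44 in Dnmt1KO and between -3.23 and -3.06 in WT, while the other two pairs overlap.

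Among the mesenchymal genes, Cdh2, on chromosome 18, had log2 values of 13.84, 14.02 and 13.54 in Dnmt1KO and 13.84, 13.59 and 13.57 in WT. Dnmt1KO replicate 2 was the highest and replicate 3 the lowest, the reverse of Cdh1 and Epcam. The difference of 0.14 ± 0.13 (limma adjusted p = 1) had an interval of 0.891 to 1.36 times the WT level, and was 0.027 without Dnmt1KO replicate 2. N-cadherin is also the main cadherin of heart muscle, and the 8 measured of 9 heart muscle markers reached summed levels of 11.71, 15.44 and 13.19 in Dnmt1KO replicates 1, 2 and 3, with 12.04 to 12.72 in WT. Replicate 2 of Dnmt1KO had the highest sum and the highest Cdh2, whereas Dnmt1KO replicate 3 had the next highest sum and the lowest Cdh2. The part of heart RNA in the Cdh2 values was not tested.

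Cdh11, on chromosome 8 between the genes of cadherin-8 and cadherin-5, encodes a type II cadherin of mesenchyme and bone-forming cells. Its 3 Dnmt1KO values were nearly identical, at 15.45, 15.46 and 15.45, with 15.62, 15.49 and 15.74 in WT. Every Dnmt1KO library lay below WT, by 0.036 at the nearest pair. The difference was -0.17 ± 0.08 (adjusted p = 1), an interval of 0.778 to 1.02 times the WT level, and stayed negative, between -0.23 and -0.11, in all 14 alternative settings.

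Cdh4 encodes R-cadherin, known from retina, brain and kidney, and lies on chromosome 2. It had 81, 66 and 93 reads in Dnmt1KO lungs and 126, 91 and 124 in WT lungs, or log2 values of 8.83, 8.40 and 8.82 in Dnmt1KO and 8.98, 8.85 and 9.10 in WT. The groups were separated by 0.022, and the difference of -0.30 ± 0.20 (adjusted p = 1) had an interval of 0.593 to 1.12 times the WT level.

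Cdh6, on chromosome 15, encodes K-cadherin, a type II cadherin of kidney precursors and of neural crest. Its spread was the widest of the 8, with 142, 256 and 158 reads in Dnmt1KO lungs and 495, 47 and 190 in WT lungs. WT replicate 1 was the highest library and WT replicate 2 the lowest, 3.04 apart on the log2 scale, while the Dnmt1KO libraries spanned 0.76. The difference of 0.33 ± 0.72 (adjusted p = 1) therefore had an interval of 0.380 to 4.16 times the WT level, and it was -0.48 without WT replicate 2 and 1.04 without WT replicate 1. All 9 neural markers were measured, and they summed to 11.82, 13.04 and 12.61 in Dnmt1KO and 13.75, 11.51 and 12.66 in WT, so that the highest and the lowest library were those of Cdh6. Their part in Cdh6 was not tested.

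**Figure D4:**
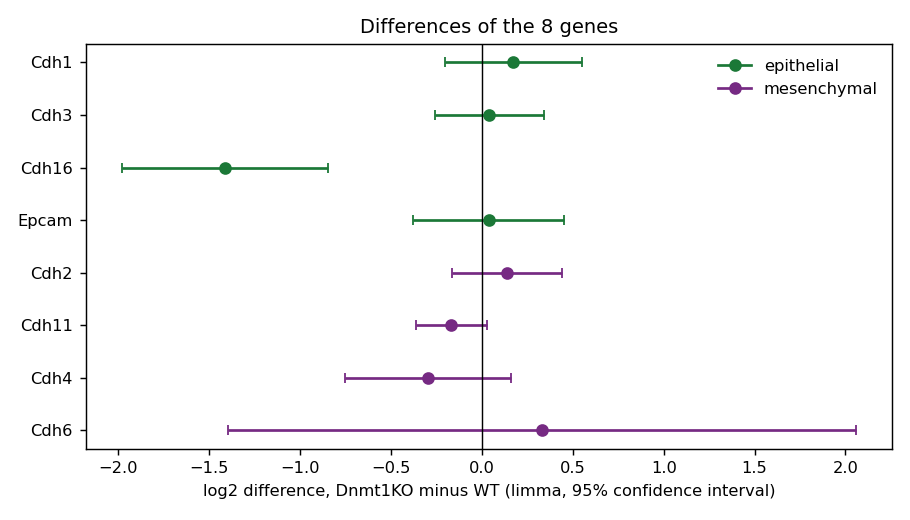
Log2 difference of each gene, Dnmt1KO minus WT, with its 95% confidence interval from limma, not adjusted for the number of genes. Cdh16 at -1.41 is the one whose interval leaves out 0, and the interval of Cdh6 reaches from -1.40 to 2.06.

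The proteins that work with cadherins gave no call. Of 12 catenins and anchors of the cadherin tail, 11 were measured and none passed in either direction, with a median difference of -0.03. The smallest p among them belonged to Arvcf (-0.31 ± 0.11, limma adjusted p = 0.807), Ctnna2, the neural alpha-catenin (0.25 ± 0.12, adjusted p = 1), and Pkp4 (-0.16 ± 0.08, adjusted p = 1). Arvcf and Pkp4 belong to the p120 catenin family, which binds the cadherin tail next to the membrane. Both had all Dnmt1KO libraries below all WT libraries, a pattern found in 3.99% of all genes. Named here for their role and outside the naming rule, Ctnnb1, which encodes beta-catenin, differed by -0.054 ± 0.08 and Ctnnd1, which encodes p120 catenin itself, by 0.034 ± 0.09. The 13 genes that cleave, sort or degrade cadherins ran from -0.091 to 0.30 with a median of 0.022, Pcsk6 (0.30 ± 0.17), Tmtc3 (0.14 ± 0.12) and Rab11a (0.063 ± 0.08) having the smallest p, and none passed.

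Other cadherins showed the same absence of calls. Of 16 further genes of the Cdh series 10 were measured, none passed, and 6 differences were positive, with a median of 0.21. The largest, Cdh19, a cadherin of glial precursors along nerves, had 61, 47 and 60 reads in Dnmt1KO lungs and 82, 4 and 27 in WT lungs (1.58 ± 0.84, limma adjusted p = 1). The groups overlapped on the log2 scale, and WT replicate 2 was the lowest library. Cdh13 (0.91 ± 0.70) and Cdh24 (-0.16 ± 0.13) came after it by p. The 5 measured of 6 Fat and Dachsous cadherins, which are giant cadherins of growth and planar polarity, had a median of -0.072, with Fat1 (-0.20 ± 0.16), Fat2 (-0.27 ± 0.28) and Dchs1 (-0.072 ± 0.14) having the smallest p.

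Desmosomes are the other kind of cadherin junction in epithelia. Of 9 desmosomal genes 7 were measured and none passed, 6 had a positive difference, and the median was 0.31. Perp, a membrane protein of desmosomes and a p53 target, had 354, 326 and 102 reads in Dnmt1KO lungs and 42, 68 and 34 in WT lungs (2.50 ± 0.54, limma adjusted p = 0.212). Its groups did not overlap, and the third Dnmt1KO library was the nearest to WT. Dsg2, the desmoglein of simple epithelia and heart, had 481, 554 and 566 reads in Dnmt1KO lungs and 548, 431 and 547 in WT lungs (0.28 ± 0.10, adjusted p = 0.747), and Pkp3, a plaque protein, differed by 0.41 ± 0.19 (adjusted p = 1). For these 3 every Dnmt1KO library lay above every WT library on the log2 scale, as for 4.79% of all genes. They were named for the smallest p of the list, which favours groups without overlap. Heart muscle also has desmosomes, and its markers, given above, were highest in Dnmt1KO replicates 2 and 3; their part here was not tested.

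The partners of Epcam and the regulators of the epithelial state were likewise without calls. All 10 partner genes were measured, 8 with a positive difference and a median of 0.20. Cd9, a tetraspanin (0.35 ± 0.20), Prss8, a membrane protease (-0.35 ± 0.20), and Spint1, its inhibitor (0.27 ± 0.17), had the smallest p, each with limma adjusted p = 1. Of 10 EMT transcription factors 8 were measured, with a median of -0.019. Twist2 differed by -0.26 ± 0.14, Tcf3 by -0.098 ± 0.07 and Snai1 by -0.15 ± 0.15, and, outside the naming rule, Snai2 by 0.028 ± 0.15 and Zeb2 by -0.024 ± 0.14. Zeb1 was not analysed here. The 10 epithelial factors that oppose EMT had a median of -0.11, with Esrp2, a splicing regulator of epithelia, at 414, 490 and 646 reads in Dnmt1KO lungs and 887, 815 and 844 in WT lungs (-0.53 ± 0.13, adjusted p = 0.306). Its Dnmt1KO libraries all lay below WT, as for Cdh16 and for 3.99% of all genes, whereas Elf5 (0.40 ± 0.28) and Esrp1 (-0.23 ± 0.17) overlapped. The 13 nectins and tight junction genes had a median of -0.054, and Crb3 (-0.18 ± 0.15), Tjp3 (-0.29 ± 0.26) and Nectin3 (-0.098 ± 0.10) had the smallest p.

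**Figure D5:**
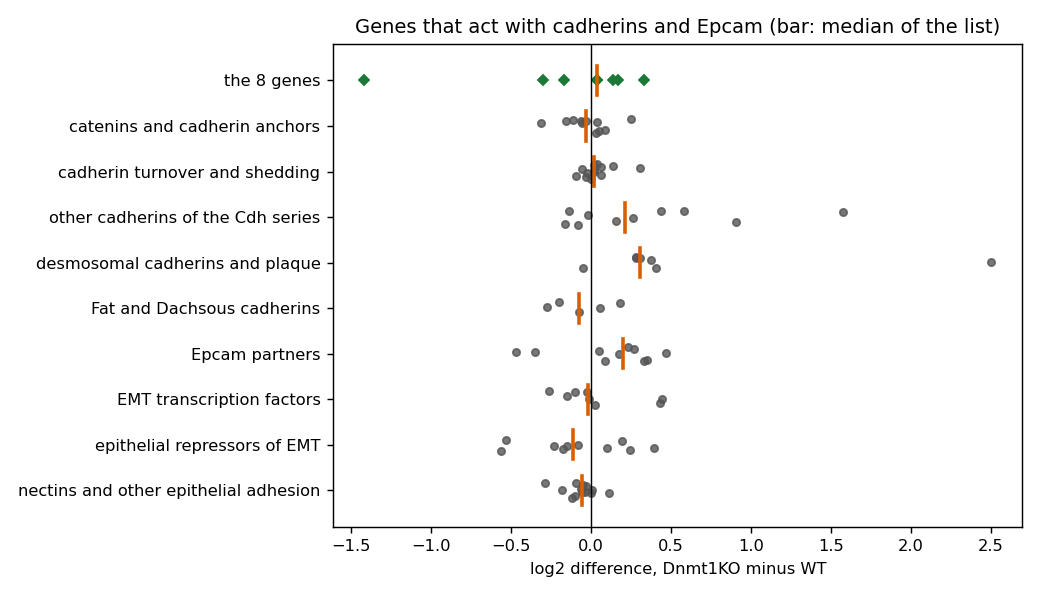
Log2 differences, Dnmt1KO minus WT, of the 8 genes (top row) and of each measured gene on 9 lists of genes that act with them, 1 point per gene, with a bar at the median. No point shown passes the test over all genes, and Perp, at 2.50, and Cdh16, at -1.41, are the largest differences in either direction.

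Markers of other cell types gave no call over all genes either. The median difference was 0.043 for 8 endothelium markers, which include Cdh5, 0.12 for 7 mesothelium markers, 1.22 for the heart muscle markers, -0.055 for the neural markers, 2.48 for the liver markers and 0.52 for 7 erythroid markers. Among the epithelium markers Foxa2 (-0.42 ± 0.18, limma adjusted p = 1) and Prom1 (-0.27 ± 0.12, adjusted p = 1) were among those with the smallest p, with a list median of -0.056. Among the mesenchyme markers these were Foxf1 (-0.38 ± 0.09, 0.261), Lum (0.51 ± 0.14, 0.467) and Fgf10 (0.71 ± 0.37, adjusted p = 1), with a median of 0.074.

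The genes whose log2 values over the 6 libraries were most like each of the 8 were sought among 11272 named genes with a mean of at least 100 reads. For Epcam they were Cldn18, the claudin of lung and stomach epithelium (Pearson's r = 0.994), Fam3c (0.992) and Oscp1 (0.985). For Cdh1 they were Bphl (0.982), Eps8l1 (0.978) and Hist1h3c (0.970), and for Cdh3 Igfbp4 (0.995), Map3k14 (0.970) and Tbc1d13 (0.968). Xylt2 (0.983), Dhx38 (0.980) and Amt (0.978) came closest to Cdh16, but with differences of only -0.15, -0.15 and -0.17 between the groups. On the mesenchymal side the nearest were Tef (0.997), Ago3 (0.993) and Alkbh1 (0.991) for Cdh2, Rbm19 (0.996), Gpatch2l (0.975) and Zfp212 (0.975) for Cdh11, Pfkm (0.985), Det1 (0.985) and Pmm2 (0.983) for Cdh4, and Ebf4 (0.990) and Col6a3 (0.989) for Cdh6. Between 7 and 42 of the 11272 genes exceeded 0.95 for each of the 8. The named genes have the highest of many r values, each over 6 points, and these values describe these libraries only.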

How the data were processed

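RNA-seq values of 6 E12.5 mouse lung libraries were used, grouped by the genotype in the titles. The authors deposited 1 log2 value per gene and library. The submitters' processing notes name STAR, limma and mm9 without roles; the sources used here give no counter, annotation, filter or scaling. Raising 2 to each value gave whole reads plus 0.5 times 1 constant per library, for 100% of genes within 1e-06 reads, and the lowest gene total was 60 reads. Symbols, chromosomes and exon lengths came from GENCODE M21 (GRCm38), which named 13967 genes; promoters came from RefSeq.

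All genes were fitted on the log2 scale with limma 3.58.1 (R 4.3.3), with genotype as the only term, trend and robust moderation, and Benjamini-Hochberg adjustment. The fit was also run on simulated reads with a preset spread, not one estimated from these libraries, so that run says nothing about its accuracy for these genes. Intervals are from the same fit. Named were the 8 genes, Dnmt1, the 3 smallest p of each list of genes that act with cadherins, of the epithelium and of the mesenchyme, and the 3 genes most alike; the other marker lists are given by their medians or summed levels. Gene models were left out as most alike, and 2 genes picked by this rule are not reported here. The members and lists were chosen with earlier results of these data known. Alternatives were the replicate block, removal of the lowest 25% of genes, other scalings, plain moderation, sample weights, voom and leaving out each library.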

Additional observations from a re-analysis of the deposited data

How the results depend on the processing

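Cdh1, Cdh2, Cdh11 and Cdh4 kept their direction and did not pass in any alternative run, with differences of 0.066 to 0.37, 0.027 to 0.27, -0.23 to -0.11 and -0.42 to -0.15. Cdh16 lay between -1.67 with sample weights (adjusted p = 0.0195) and -1.13, and as each library was left out between -1.61 and -1.13 (adjusted p = 0.0391 to 0.5). Its limma adjusted p was 0.338 with the lowest 25% of genes removed. Epcam was -0.14 with sample weights. Omitting 1 library at a time gave -0.14 to 0.23 for Epcam, -0.10 to 0.17 for Cdh3 and -0.48 to 1.04 for Cdh6; the cause was not tested. Cdh4 and Cdh6 belong to the lowest 25% of genes by mean and have no value once those are removed.

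The 40 higher and 1 lower calls of limma over all genes became 26 higher and 0 lower with the replicate block, 0 and 0 with the lowest 25% of genes removed (308 at an unadjusted p under 0.05), 24 higher with voom, 32 higher and 0 lower without trend and robust estimation, and 57 higher and 12 lower with sample weights. With 1 library omitted they were 15 to 42 higher and 0 to 17 lower. Voom with library totals was chosen after seeing the data; voom with TMM scaling was not run. Same-numbered libraries had deviations from their group means correlated at -0.003, -0.18 and 0.31, and libraries of unlike number at -0.37 to 0.38. Deviations within a group of 3 depend on each other, so these values cannot decide whether the numbers pair the libraries. With the replicate block no call among the 8 genes changed (Cdh16 limma adjusted p = 0.0893). Cdh4, Cdh6 and Cdh16 had the fewest reads of the 8 genes, 47 to 495 per library, and the part of depth in their spread was not tested.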

Other observations

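Several measured genes had the same highest libraries as Cdh6, and 2 of them, chosen after their values were seen, are given here. Twist1, a transcription factor of mesenchyme, had 61, 518 and 154 reads in Dnmt1KO lungs and 507, 60 and 100 in WT lungs. Cdh10, a type II cadherin of brain, is separated from Cdh6 by Cdh9 in gene order on chromosome 15. It had 33, 80 and 44 reads in Dnmt1KO lungs and 130, 18 and 30 in WT lungs. For Twist1 and Cdh10 alike, Dnmt1KO replicate 2 and WT replicate 1 were the highest libraries, with no difference between the groups beyond the spread (limma adjusted p = 1 for both). Prrx1, Sox10, Fat3 and Foxd3 were also highest in these 2 libraries, so the pattern was not particular to Twist1 and Cdh10. Over all genes, the deviations of these 2 libraries from their group means correlated at 0.38.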
